A study of Mus musculus with 6 samples.

Results

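A set of 31 mouse genes for the synthesis, attachment, remodelling and release of glycosylphosphatidylinositol (GPI) anchors was examined among 53090 gene rows, selected by symbol alone, and each symbol had a single row. The pathway was chosen because Pigb, one of its genes, was already known to be among the strongest falls in the same comparison. The level of Pigb is therefore given as a description without a test, and the calls of the other members describe the same contrast and support nothing beyond it. The libraries came from Ly6G-selected neutrophils of the liver (3 libraries) and of the blood (3 libraries), all from mice fed 3,5-diethoxycarbonyl-1,4-dihydrocollidine (DDC), an agent that injures bile ducts, for 1 week. No library from mice without the diet was analysed here, and no label gives strain, sex or age. It is not stated whether equal sample numbers mark the same mouse or whether mice were pooled. The p-values thus reflect the spread among libraries, which may in part be technical. Liver cells passed through a Percoll gradient and blood cells through lysis, so tissue and preparation cannot be told apart.

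GPI is a glycolipid that holds many cell-surface proteins in the outer leaflet of the membrane. It is built sugar by sugar in the endoplasmic reticulum, attached there to finished proteins by a transamidase complex, and then trimmed and given other fatty acids on the way to the surface. Neutrophils carry many such proteins, and somatic loss of human PIGA in blood stem cells leaves blood cells without them in paroxysmal nocturnal haemoglobinuria.

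Libraries held 13778681 to 17579669 counts in liver and 13054673 to 14403803 in blood. Of 12 neutrophil markers, all were detected in both groups, and their summed level was 7923 to 13600 CPM in liver against 21317 to 32619 CPM in blood (CPM, counts scaled to a common library size with TMM factors), with 8 of the 12 called lower. The neutrophil markers Camp, Ltf and Ngp went the other way without a call. Liver 1 stood highest in them, at 47.1, 195 and 612 CPM. Marker lists of other cell types also differed. Summed hepatocyte markers (11 genes) were 272, 316 and 503 CPM in liver against 153, 108 and 118 CPM in blood, and 6 of the 8 tested were higher. Trf, which encodes transferrin, made up most of the blood sums, and the other 10 genes summed to 17.9, 141 and 247 CPM in liver against 7.55, 0.526 and 0.940 CPM in blood. Kupffer cell and macrophage markers (11 genes) summed to 588 to 927 CPM in liver against 369 to 565 CPM in blood, with 5 of 10 tested higher. Csf1r, not called, was the largest part of these sums, with means of 360 CPM in liver and 326 CPM in blood. Of the 5 called, Clec4f, Marco and Vsig4 had means of 27.3, 28.5 and 7.29 CPM in liver against 0.120, 0.551 and 0.261 CPM in blood. Adgre1 and Cd68 rose by 0.60 and 0.85 on the log2 scale. Monocyte markers (7 genes) summed to 2736 to 3480 CPM in liver against 203 to 492 CPM in blood, with 6 of 7 higher. Nr4a1 made up most of these sums, at 2083, 1990 and 2352 CPM in liver against 364, 138 and 159 CPM in blood. Ccr2 had a mean of 84.1 CPM in liver and 6.33 CPM in blood. Ly6c2 went the other way, with means of 13.9 and 17.6 CPM, and was not called. Platelet markers (6 genes) were at 7.70 to 16.3 CPM in liver against 34.8 to 207 CPM in blood. Red cell markers (6 genes) were at 143 to 2729 CPM in liver against 367 to 33690.5 CPM in blood, and 0 of 6 were called. Liver endothelium markers had 5 of 6 tested higher, dendritic cell markers 3 of 5 higher and B cell markers 2 of 4 lower. None of the neutrophil, hepatocyte, macrophage, monocyte, platelet and red cell lists had a member at 0 in all libraries of a group. The part of these cells in the results was not tested, and in bulk RNA fewer cells of a type and less RNA per cell cannot be told apart.

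Promoter windows are shown for Pigb, for Pigx and Pigv, and for Pigu, the only member called higher. Pigx and Pigv are grouped with Pigb among the mannosyltransferases and were called lower. Each window runs from 250 bases before to 50 bases after a RefSeq gene start and is read 5′ to 3′ on the gene's strand, with sequences credited to RefSeq (GRCm38.p6). The windows are chr9:73039650-73039949 for Pigb, chr16:32099678-32099977 for Pigx, chr4:133672598-133672897 for Pigv and chr2:155357375-155357674 for Pigu, all on the minus strand. The Pigb window lies wholly inside the counted Pigb row, which on this strand begins further upstream, at 73040378. The windows of Pigx, Pigv and Pigu contain the starts of their counted rows. Capitals mark matches on either strand to any of 5 short motifs. The letters searched for the ETS motif, which is bound by a family of factors active in blood cells, were CCGGAAG. The CCAAT box was searched by the letters of its name. The E-box, a palindrome bound by helix-loop-helix factors, was searched as CACGTG. The letters searched for the GC box, the usual site of Sp factors, were GGGCGG. The TATA box, which positions the start of some genes, was searched as TATAAA. None of the marked matches overlap.
Pigb: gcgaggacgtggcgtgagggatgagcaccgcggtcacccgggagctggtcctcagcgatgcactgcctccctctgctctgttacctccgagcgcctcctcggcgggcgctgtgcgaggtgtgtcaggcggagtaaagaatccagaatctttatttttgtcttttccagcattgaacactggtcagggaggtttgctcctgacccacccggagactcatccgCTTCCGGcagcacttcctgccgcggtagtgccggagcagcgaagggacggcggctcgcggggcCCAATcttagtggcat
Pigx: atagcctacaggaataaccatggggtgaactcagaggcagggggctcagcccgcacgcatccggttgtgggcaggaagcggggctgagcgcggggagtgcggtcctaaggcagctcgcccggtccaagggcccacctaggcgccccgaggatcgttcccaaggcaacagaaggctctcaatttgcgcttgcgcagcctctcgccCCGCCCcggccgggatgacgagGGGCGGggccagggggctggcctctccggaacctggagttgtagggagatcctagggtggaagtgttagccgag
Pigv: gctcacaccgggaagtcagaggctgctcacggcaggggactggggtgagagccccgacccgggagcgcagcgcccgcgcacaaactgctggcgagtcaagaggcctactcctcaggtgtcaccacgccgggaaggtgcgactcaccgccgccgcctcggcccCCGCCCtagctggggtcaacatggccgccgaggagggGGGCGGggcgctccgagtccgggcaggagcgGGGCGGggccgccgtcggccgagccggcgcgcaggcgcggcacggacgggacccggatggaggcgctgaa
Pigu: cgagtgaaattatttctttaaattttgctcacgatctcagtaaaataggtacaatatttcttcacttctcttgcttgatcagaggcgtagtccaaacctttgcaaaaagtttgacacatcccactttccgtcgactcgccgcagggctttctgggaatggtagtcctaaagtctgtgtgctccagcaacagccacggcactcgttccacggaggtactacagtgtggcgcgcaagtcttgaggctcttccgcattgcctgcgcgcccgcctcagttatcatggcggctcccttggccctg
The Pigb window held 1 ETS match and 1 CCAAT match, the Pigx window 2 GC boxes, the Pigv window 3 GC boxes and the Pigu window none of the 5 motifs. Over 16522 promoter windows of the same length, 12.3% held the ETS motif, 38.8% the CCAAT box, 48.2% the GC box, 8.09% the E-box and 12.9% the TATA box. The windows of Pigb, Pigx, Pigv and Pigu held 25, 22, 38 and 17 CpG dinucleotides, against a median of 14 over all windows. No motif was thus common to Pigb, Pigx and Pigv, and these letters say nothing of which factors bind there.

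Of the 31 members, 25 passed the filter on low counts and 6 did not. Among the 25 tested, 5 were called lower and 1 higher at an adjusted p under 0.05 (edgeR's quasi-likelihood test, Benjamini-Hochberg adjustment over all genes tested), against 14.2% of all 13458 tested genes called lower and 17.4% called higher. Without Pigb these counts were 4 and 1 of 24. In all, 24.0% of tested members were called (20.8% without Pigb), where 31.6% of all genes were. The median log2 fold change (liver minus blood) was -0.34 over the tested members, -0.26 without Pigb and 0.04 over all genes. That median moved to -0.07 without blood 2, -0.06 without blood 3 and -0.13 without liver 2. Every liver library lay below every blood library in 10 of the 25 tested members and above in 2 (9 and 2 of 24 without Pigb). Among all tested genes the shares were 22.7% below and 25.8% above. Of the 25 tested members, 10 had a positive and 15 a negative log2 fold change (10 and 14 without Pigb), and 19 were not called. Without liver 3 and blood 1, the libraries of each group that stood highest in hepatocyte markers and (for blood 1) in red cell markers, 3 members were called lower and 1 higher.

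**Figure D1:**
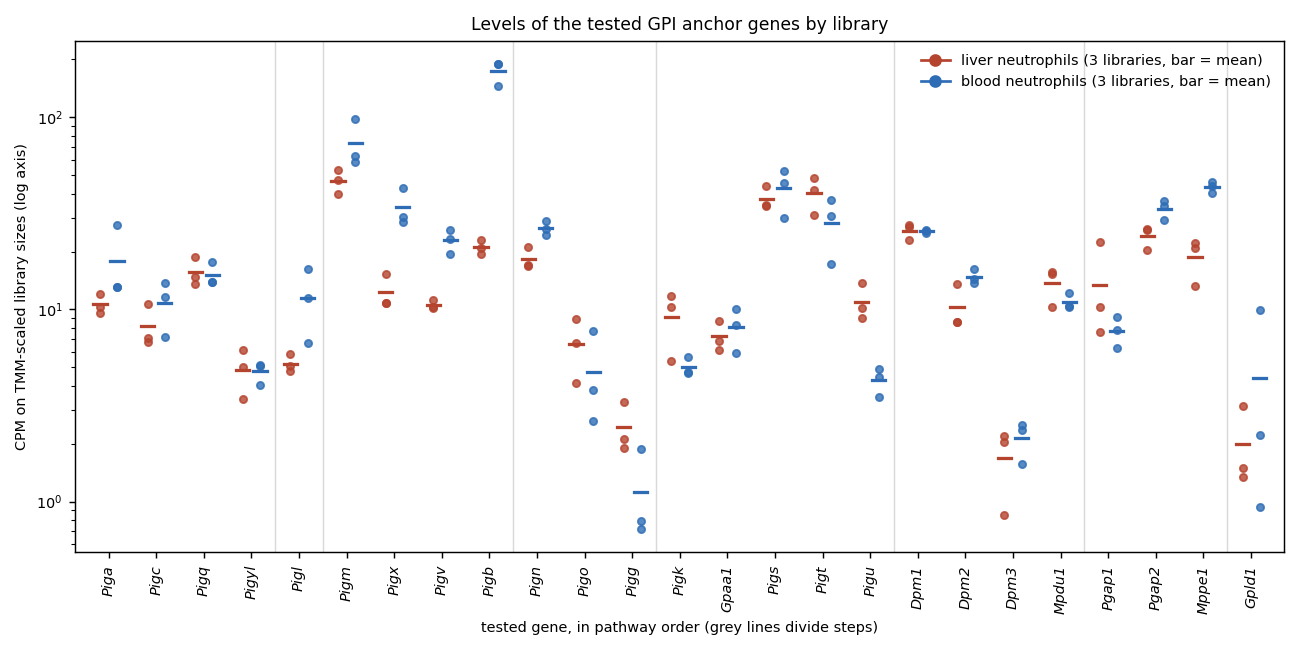
Level of each tested GPI gene in CPM (log axis) in pathway order, with 3 liver libraries left and 3 blood libraries right of each tick and a bar at the mean. Pigb stands at 19.4 to 23.1 CPM in liver and 145 to 189 CPM in blood, while Dpm1 and Pigq overlap between the groups.

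The first step, transfer of N-acetylglucosamine to phosphatidylinositol, is done by a complex of several subunits. None of its 4 tested members was called. Piga, the catalytic subunit, had 10.3, 12.0 and 9.58 CPM in liver against 13.2, 27.6 and 13.2 CPM in blood. The groups of Piga did not overlap and blood 2 stood apart, but its log2 fold change of -0.75 ± 0.34 (SE) had an adjusted p of 0.12. Pigc, another subunit, had 7.12, 10.7 and 6.75 CPM in liver against 7.19, 13.7 and 11.7 CPM in blood, and these overlapped. Pigq, which stabilises the complex, had a mean of 15.6 ± 2.68 CPM in liver against 15.1 ± 2.15 CPM in blood (here and below, means are ± SD over 3 libraries a group). Pigyl, the small subunit, had a mean of 4.85 ± 1.37 CPM in liver against 4.77 ± 0.639 CPM in blood. The log2 fold changes of Pigq and Pigyl were 0.05 ± 0.26 and 0.02 ± 0.37 (SE), and both changed sign when single libraries were left out. Pigq shares 957 exonic bases with the antisense gene Gm16278. Pigh and Pigp, 2 further subunits, were too low to test. Pigh had 9, 6 and 16 counts in liver against 8, 8 and 14 in blood, and Pigp 22, 0 and 16 counts in liver against 6, 1 and 5 in blood.

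Pigl removes the acetyl group in the next step. It had 5.09, 4.76 and 5.85 CPM in liver against 16.2, 6.66 and 11.5 CPM in blood. The liver libraries lay close together and below all blood libraries, which spread more widely. The log2 fold change was -1.13 ± 0.37 (SE, adjusted p = 0.043). That call was lost in 10 of 15 alternatives, among them those leaving out any single library but blood 2, where the adjusted p ran from 0.072 to 0.15. Pigl shares 82 exonic bases with Ncor1, an abundant corepressor gene on the other strand that was also lower, at -1.04 (adjusted p = 0.0038). Pigw, which acylates the inositol ring, had 4, 20 and 25 counts in liver against 1, 0 and 2 in blood and did not pass the filter. When every gene with a count was tested, Pigw had a log2 fold change of 3.67 ± 1.35 (SE, adjusted p = 0.036), which rests on these few blood counts. The other members that did not pass the filter, Pigh, Pigp, Pigz, Pigf and Pgap3, were not called in that fit (adjusted p 0.12 to 0.92).

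The mannosyltransferases add the mannoses of the anchor core from dolichol-phosphate-mannose. All 4 tested members lay lower in each liver library than in each blood library, and Pigx and Pigv were called lower beside Pigb. Of all tested genes, 22.7% lay so and 14.2% were called lower. The 4 include Pigb, by which the pathway was chosen. Pigb, which adds the third mannose, had 20.9, 23.1 and 19.4 CPM in liver against 145, 189 and 189 CPM in blood. The 2 groups were far apart and each was tight, with a log2 fold change of -3.04 ± 0.20 (SE), an 8.24-fold lower level. Over the 15 alternatives its log2 fold change ran from -3.20 to -2.96. Pigx, the partner that stabilises the first mannosyltransferase, had 10.8, 15.4 and 10.8 CPM in liver against 30.1, 28.7 and 43.1 CPM in blood. It fell by 1.46 ± 0.27 on the log2 scale (SE, adjusted p = 0.0037) and stayed called in all 15 alternatives. Pigm, the catalytic partner of Pigx, had 39.9, 47.2 and 53.1 CPM in liver against 58.4, 63.0 and 98.0 CPM in blood. Its groups did not overlap, but liver 3 and blood 1 were close, and the log2 fold change of -0.65 ± 0.24 was not called (adjusted p = 0.065, and 0.044 without blood 1). Pigv, which adds the second mannose, had 10.2, 11.2 and 10.2 CPM in liver against 25.9, 19.4 and 23.4 CPM in blood. It fell by 1.12 ± 0.24 (SE, adjusted p = 0.0083), with an adjusted p of 0.061 when liver 3 and blood 1 were both left out. Pigz, which can add a further mannose, had 4, 34 and 11 counts in liver against 5, 1 and 0 in blood and was not tested.

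On a scale that allows levels of different genes to be compared (CPM per kilobase of exon), Pigb averaged 2.03 ± 0.179 in liver and 16.7 ± 2.43 in blood. It thus ranked 15 of the 31 members in liver and 2 in blood, where Pigs at 17.1 ± 4.59 stood beside it within their spread. Exon length here is the union over annotated transcripts, which for Pigb includes 3 retained-intron and 2 nonsense-mediated decay transcripts of 9 in all. Pigb made up 5.27%, 6.28% and 5.05% of the summed CPM of the 31 members in liver against 24.9%, 31.1% and 27.0% in blood. With Pigb left out, the other 30 members summed to 376, 345 and 365 CPM in liver against 437, 419 and 509 CPM in blood, a ratio of means of 0.795. The groups did not overlap, so a smaller deficit remained in this sum. Its largest falls in mean were in Pigm, Mppe1, Pigx and Pigv. Their means were 46.8, 18.8, 12.3 and 10.5 CPM in liver against 73.1, 43.5, 34.0 and 22.9 CPM in blood. Of the 24 tested members without Pigb, 10 had a positive log2 fold change and 19 were not called. How often such sums separate for other genes was not tested. The 4 mannosyltransferases other than Pigb summed to 61.3, 75.8 and 74.8 CPM in liver against 115, 111 and 164 CPM in blood. The ratio of these means was 0.543, and these sums weight long and abundant transcripts most.

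**Figure D2:**
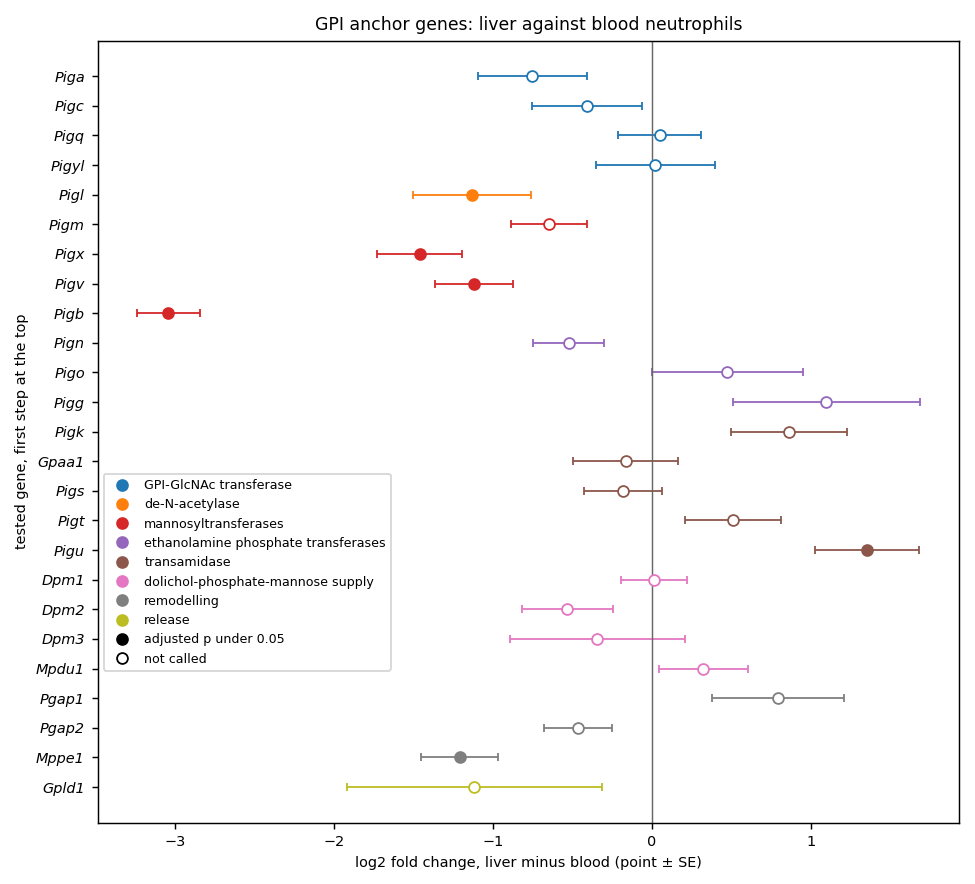
Log2 fold change of each tested GPI gene, liver minus blood, with its SE; filled points have an adjusted p under 0.05 and colours give the step. The mannosyltransferases run from -3.04 to -0.65, whereas the transamidase members run from -0.18 to 1.36.

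Ethanolamine phosphate is placed on the mannoses by Pign, Pigo and Pigg, and none of the 3 was called. Pign, which modifies the first mannose, had 16.8, 17.0 and 21.2 CPM in liver against 28.7, 24.4 and 26.1 CPM in blood. These did not overlap, with a log2 fold change of -0.52 ± 0.22 (SE, adjusted p = 0.10). Pigo, which modifies the third mannose and whose product is the group joined to the protein, had 8.94, 4.16 and 6.69 CPM in liver against 3.81, 2.63 and 7.72 CPM in blood, with overlap. Pigg, acting on the second mannose, had 1.89, 3.31 and 2.12 CPM in liver against 0.719, 0.789 and 1.88 CPM in blood. Its highest blood library reached the lowest liver library almost exactly, and its log2 fold change of 1.10 ± 0.59 had an adjusted p of 0.18. Pigf, the partner of Pigo and Pigg, had 7, 3 and 17 counts in liver against 10, 2 and 0 in blood and was not tested.

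The transamidase cleaves the protein's tail signal and joins the finished anchor. Of its 5 members, all tested, Pigu was called higher and none lower. Pigu had 13.8, 10.1 and 9.005 CPM in liver against 4.46, 4.91 and 3.49 CPM in blood. It was 2.56-fold higher in liver, with a log2 fold change of 1.36 ± 0.33 (SE, adjusted p = 0.013), and the adjusted p was 0.056 without liver 1. Pigk, the catalytic subunit, had 10.2, 5.42 and 11.7 CPM in liver against 5.68, 4.64 and 4.70 CPM in blood. Only liver 2 reached down into the blood range, and the log2 fold change of 0.86 ± 0.37 was not called (adjusted p = 0.10, and 0.044 without liver 2). Pigt had 48.3, 31.1 and 42.0 CPM in liver against 30.8, 17.2 and 37.1 CPM in blood, with overlap and an adjusted p of 0.22. Pigs had a mean of 37.7 ± 5.19 CPM in liver against 42.8 ± 11.5 CPM in blood, and Gpaa1 7.24 ± 1.35 CPM in liver and 8.12 ± 2.06 CPM in blood. Neither was called (adjusted p 0.60 and 0.73). Summed over the complex, levels were 125, 87.4 and 104 CPM in liver against 92.6, 66.9 and 106 CPM in blood, which overlapped.

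Dolichol-phosphate-mannose, the mannose donor, is made by Dpm1 with its partners Dpm2 and Dpm3, and Mpdu1 is needed for its use. None of the 4 was called. Dpm1 had 26.8, 27.4 and 23.0 CPM in liver against 25.9, 25.0 and 25.6 CPM in blood, a log2 fold change of 0.01 ± 0.21 (SE). Its row shares 895 exonic bases with Gm20716, a gene model on the same strand. Dpm2 had 8.62, 13.5 and 8.62 CPM in liver against 14.4, 13.7 and 16.3 CPM in blood, where liver 2 came close to blood 2 (adjusted p = 0.19). Dpm3 had a mean of 1.69 ± 0.736 CPM in liver against 2.15 ± 0.501 CPM in blood, and Mpdu1 13.7 ± 2.99 CPM in liver and 11.0 ± 1.02 CPM in blood. Genes of donor supply thus showed no call in either direction.

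After attachment the anchor is remodelled. Mppe1, which removes an ethanolamine phosphate from the second mannose, had 20.9, 13.3 and 22.3 CPM in liver against 43.8, 40.5 and 46.3 CPM in blood. The groups were well apart, with a log2 fold change of -1.21 ± 0.24 (SE, adjusted p = 0.0057), and the call stood in all 15 alternatives. Mppe1 shares 852 exonic bases with Gnal on the other strand, whose log2 fold change of -0.53 was not called (adjusted p = 0.24). Pgap1, which removes the acyl chain from inositol, had 10.2, 7.65 and 22.4 CPM in liver against 7.83, 9.11 and 6.31 CPM in blood. Liver 3 stood alone there, and the log2 fold change of 0.80 became 0.20 without it. Pgap2, which acts in the exchange of fatty acids in the Golgi, had 26.2, 26.0 and 20.5 CPM in liver against 29.3, 36.6 and 34.5 CPM in blood, not overlapping and not called (adjusted p = 0.13). Pgap3, of the same remodelling, had 21, 11 and 10 counts in liver against 7, 0 and 6 in blood and was not tested.

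Gpld1 encodes a phospholipase that cuts GPI anchors and circulates in plasma, made largely by the liver. It had 1.50, 3.13 and 1.35 CPM in liver against 0.934, 9.99 and 2.22 CPM in blood. Blood 2 was far above the rest, and the log2 fold change of -1.12 ± 0.80 (SE, adjusted p = 0.32) became 0.31 without that library. Hepatocyte markers were higher in liver, and their part in the Gpld1 level was not tested. Of its 5415 exonic bases, 2466 are shared with Mrs2 on the other strand.

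The Pigb row lies on chromosome 9 from 73007419 to 73040378 (GRCm38, minus strand) among genes on the other strand that were lower as well. Ccpg1, which encodes a receptor for autophagy of the endoplasmic reticulum, runs towards Pigb and shares 2170 of its 10434 exonic bases. Ccpg1 had 770.3, 940.1 and 526 CPM in liver against 2250.5, 2594 and 1689 CPM in blood. It fell by 1.55 ± 0.28 on the log2 scale (SE, adjusted p = 0.0036), a smaller log2 fold change than that of Pigb. For each 100 Ccpg1 counts there were 2.71, 2.46 and 3.70 Pigb counts in liver against 6.45, 7.30 and 11.2 in blood. This ratio contains the Pigb counts by which the pathway was chosen and is a description only. Rab27a, a small GTPase gene for granule release that begins 4475 bases beyond Pigb, had 144, 172 and 122 CPM in liver against 361, 456 and 339 CPM in blood and fell by 1.40 ± 0.21 (adjusted p = 0.0016). The transcript 2310009A05Rik starts inside the Pigb promoter window and shares 661 exonic bases with Pigb. It had 3.72, 2.71 and 3.54 CPM in liver against 8.41, 14.3 and 7.79 CPM in blood (log2 fold change -1.61 ± 0.37, adjusted p = 0.0098).

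Gm38192, a gene model within the span of Pigb that shares no exonic base with it, had the log2 fold change nearest to that of Pigb among the 4 tested neighbours. It had 1.89, 1.81 and 1.48 CPM in liver against 12.5, 12.3 and 16.0 CPM in blood, and fell by 2.97 ± 0.33 (SE, adjusted p = 0.00047). Pigb had 1103, 1280.0 and 1313 counts per 100 Gm38192 counts in liver against 1160.3, 1544 and 1181 in blood, and this ratio overlapped between the groups. It too contains the Pigb counts by which the pathway was chosen and is a description only. All 4 tested neighbours within 10000 bases of Pigb were called lower, in every alternative run. In the main fit 14.2% of all tested genes were called lower. Ccpg1 and 2310009A05Rik also share exonic bases with Pigb, the gene by which the pathway was chosen. The deposited counts do not state whether strand was used, so reads of Pigb and of its overlapping neighbours cannot be told apart, and the share of each in the Pigb counts was not tested.

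**Figure D3:**
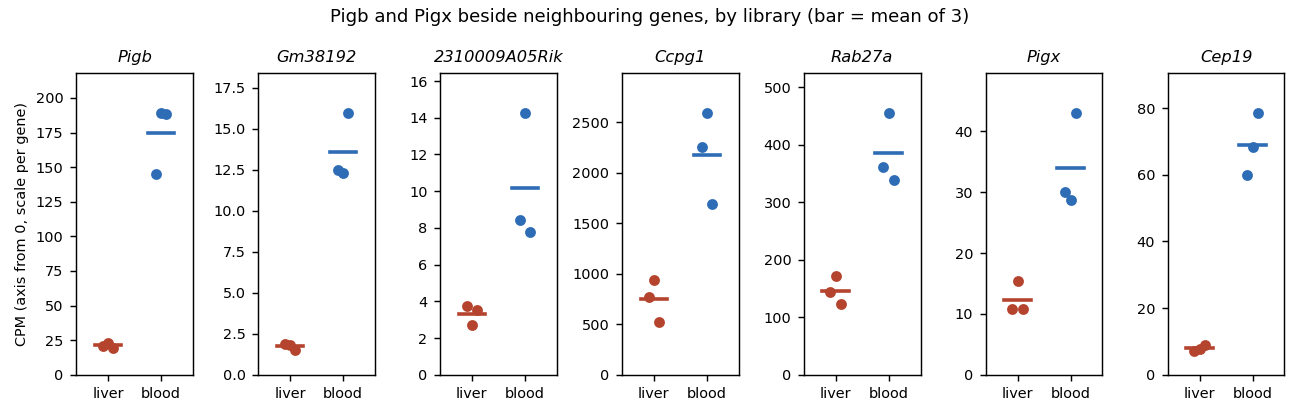
CPM of Pigb, 4 neighbouring rows, Pigx and Cep19, with liver left and blood right, 3 libraries each, a bar at the mean and a separate axis from 0 for each gene. All 7 lie lower in each liver library than in each blood library, with Pigb at 8.24-fold and Rab27a at 2.64-fold lower.

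Pigx also has a close partner that starts on the opposite strand. Cep19, a gene for a centrosomal and ciliary protein singled out after its values were seen, begins 59 bases from Pigx on chromosome 16, inside the Pigx window. It had 7.18, 7.71 and 8.94 CPM in liver against 59.8, 68.4 and 78.7 CPM in blood. Its log2 fold change of -3.12 ± 0.22 (SE, adjusted p = 7.5e-05) was larger in size than that of Pigx, and the 2 rows share no exonic base. For each 100 Cep19 counts there were 151, 199 and 121 Pigx counts in liver against 50.4, 41.9 and 54.8 in blood. Among the 25 members with a RefSeq window, 7 windows (28.0%) held the start of a gene on the opposite strand, as did 9.30% of all 16522 windows. The other 5 pairs were as follows. Pigw and its partner Myo19 were too low to test, with 49 Pigw counts over liver against 3 over blood and 51 Myo19 counts over liver against 8 over blood. Pigf was also not tested, and its partner Cript had -0.45 and was not called (adjusted p = 0.17). Pign had -0.52 and its partner 2310035C23Rik -0.52 on the log2 scale, and neither was called. Pgap2 had -0.46, but its partner Nup98, a nuclear pore gene, was called higher at 1.20 (adjusted p = 0.041). Dpm1 had 0.01 and its partner Mocs3 -0.25, again without a call. Among the pairs with both genes tested, both were thus lower for Pigb and Pigx, and neither was called lower for Pign, Pgap2 and Dpm1. Pigb and its partner 2310009A05Rik share 661 exonic bases, so their reads cannot be told apart.

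Further genes that help GPI biosynthesis and transport, among them the p24 cargo receptors, formed a list of which 7 were tested. None was called by edgeR, with 1 of them, Tmed5, at an unadjusted p under 0.05, and 0 were called by DESeq2. Scaling by library totals alone, or adding the replicate number as a block, gave 1 higher call. Tmed10, a p24 member that carries GPI-anchored proteins out of the endoplasmic reticulum, had a mean of 174 ± 38.0 CPM in liver against 223 ± 22.7 CPM in blood, and Tmed2 127 ± 22.2 CPM in liver and 158 ± 38.2 CPM in blood.

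N-glycan assembly uses the same dolichol-phosphate-mannose donor and served for comparison. Of its 31 tested genes 8 were called higher and 1 lower, and the log2 fold changes had a median of 0.56. The share called was 29.0%, near the 31.6% of all tested genes, of which 17.4% were higher and 14.2% lower. Rpn2, a subunit of the oligosaccharyltransferase that hands the glycan to proteins, had 43.3, 35.2 and 38.4 CPM in liver against 18.5, 17.7 and 15.4 CPM in blood, and rose by 1.18 ± 0.21 (SE, adjusted p = 0.0033). Krtcap2, a further subunit gene of that enzyme, rose by 2.04 ± 0.49 (adjusted p = 0.012, and 0.054 without liver 2). Alg13 and Alg9, which act in adding sugars to the precursor, rose by 2.39 ± 0.67 and 1.19 ± 0.40 (adjusted p 0.024 and 0.047). The Alg13 call was lost without liver 1, liver 3, blood 1 or blood 3, and the Alg9 call without any single library but liver 3. Stt3b, a catalytic subunit, had a mean of 38.2 ± 7.84 CPM in liver against 38.2 ± 4.30 CPM in blood, and Srd5a3, of dolichol synthesis, 24.4 ± 6.29 CPM in liver and 28.0 ± 0.693 CPM in blood. Neither was called. Dhdds and Nus1 encode the 2 subunits of the enzyme that makes the dolichol chain and are named after their values were seen. Dhdds fell by 0.84 ± 0.26 and Nus1 rose by 0.86 ± 0.26 (adjusted p 0.034 and 0.032). The 8 higher calls became 3 without liver 1, 4 without blood 1 or blood 2, 5 without liver 3 or blood 3 and 6 without liver 2. The lower call, Dhdds, was lost without blood 2 or any liver library. Without liver 3 and blood 1 together 4 were higher and 0 lower.

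Genes of proteins that carry the anchor were also examined. Of 60 genes listed, 30 were tested, with 9 called higher and 6 lower and a median log2 fold change of 0.43. In all 15 of the 30 were called, where 31.6% of all tested genes were, 17.4% higher and 14.2% lower. The 4 with the largest changes were higher. Cd48, a lymphocyte and myeloid adhesion ligand, had 5.55, 10.2 and 11.3 CPM in liver against 2.30, 1.31 and 0.269 CPM in blood and rose by 2.80 ± 0.65 (SE, adjusted p = 0.011). Dpep2, a dipeptidase gene, rose by 2.48 ± 0.48 (adjusted p = 0.0050, and 0.052 without liver 3 and blood 1). Folr2, a folate receptor of macrophages, had 96 counts over liver and 11 over blood (adjusted p = 0.046), and Hyal2, a hyaluronidase gene, 76 over liver and 12 over blood (adjusted p = 0.035). The Folr2 call was lost without any single library, and the Hyal2 call without any but blood 1. Macrophage markers and most monocyte markers moved in the same direction, and their part was not tested. Cd24a and Ly6e, the most abundant members not called, had a mean of 834 ± 168 CPM in liver against 607 ± 74.0 CPM in blood for Cd24a, and 676 ± 303 CPM in liver and 613 ± 308 CPM in blood for Ly6e.

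The 6 lower genes were named after their values were seen. Most neutrophil markers, Ly6g among them, were lower too, with 8 of 12 called and a median log2 fold change of -1.22. Camp, Ltf and Ngp had log2 fold changes of 1.03, 0.61 and 0.54 and were not called. The part of neutrophil markers in these values was not tested. Ly6g, the antigen used to isolate the cells, had 11.9, 8.79 and 4.50 CPM in liver against 23.6, 45.7 and 21.3 CPM in blood. Mmp25, a membrane-bound metalloproteinase, had 51.5, 51.6 and 38.0 CPM in liver against 121, 144 and 126 CPM in blood and fell by 1.47 ± 0.19 (SE, adjusted p = 0.00093). Cd177, a neutrophil antigen, had 80.9, 33.1 and 70.0 CPM in liver against 117, 129.7 and 155 CPM in blood (adjusted p = 0.021). Bst1, an NAD-consuming ectoenzyme, Vnn3, a vanin, and Reck, an inhibitor of metalloproteinases, had log2 fold changes of -1.27, -1.63 and -2.27 (adjusted p 0.011, 0.0029 and 0.0051). On the higher side, likewise named after their values were seen, Cd14, the lipopolysaccharide co-receptor, had 1742, 971 and 841 CPM in liver against 214, 389 and 162 CPM in blood. Plaur, the urokinase receptor, had 544, 413 and 465 CPM in liver against 324, 296 and 291 CPM in blood, and rose by 0.64 ± 0.19 (adjusted p = 0.029). Without single libraries the higher calls of this list numbered 3 to 8, with 5 without blood 1, 3 without blood 3 and 4 without liver 1, and the lower calls 6 to 7. Without liver 3 and blood 1 together they were 2 higher and 5 lower.

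**Figure D4:**
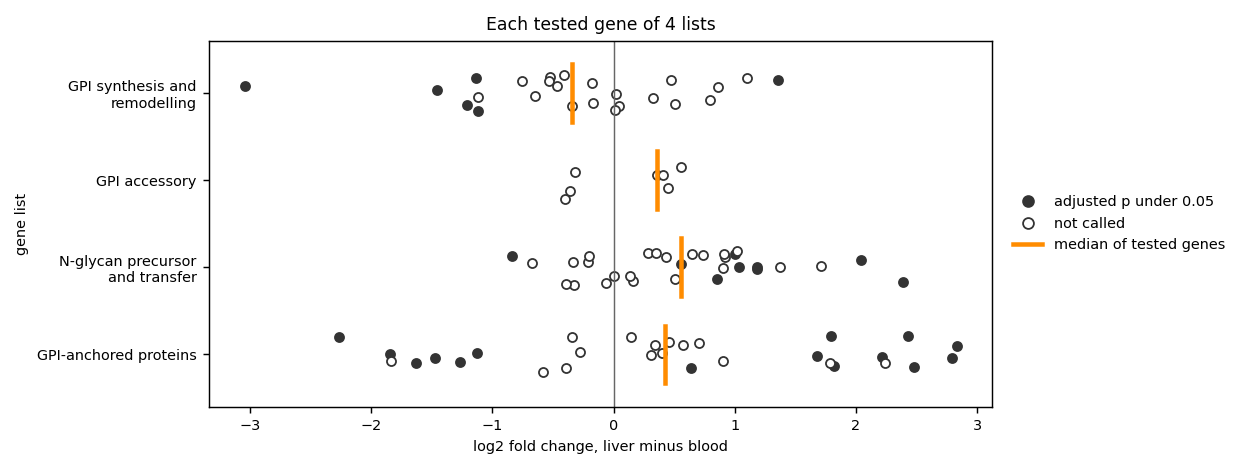
Log2 fold change, liver minus blood, of each tested gene in 4 lists, filled where the adjusted p was under 0.05, with a bar at the list's median. The medians are -0.34 for GPI synthesis and remodelling, 0.36 for GPI accessory genes, 0.56 for N-glycan assembly and 0.43 for GPI-anchored proteins.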

How the data were processed

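The deposited values were expected counts per gene, which the authors estimated from paired-end reads of stranded total-RNA libraries. STAR, RSEM, FastQC 0.11.5, limma and GRCm38 are named per the submitters' processing notes. For STAR and RSEM the version, and for counting the annotation and strand setting, were not given in the sources used here.

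These values were rounded to integers, and genes were kept by filterByExpr (minimum count 10, minimum total 15), which left 13458 of 53090. Liver was tested against blood with edgeR 4.0.16 (R 4.3.3) by the quasi-likelihood test with TMM factors, without a replicate term, and p-values were adjusted by Benjamini-Hochberg over all genes tested. The SE of a log2 fold change was derived from this test, as its size divided by the square root of the F statistic. CPM used the TMM-scaled library sizes, and 3 counts, a floor for counting error only, were worth 0.181 to 0.263 CPM. Coordinates, exon lengths and overlaps came from GENCODE for GRCm38 (98.7% of gene rows matched by identifier), and promoter windows from RefSeq.

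Members and gene lists were chosen with earlier results of these data known. All members are described. In the other lists, the rule named up to 4 called genes with the largest log2 fold changes in size and the 2 most abundant not called, while other names are marked as chosen after their values were seen. Pairs of libraries within a group differed beyond sampling noise (chi-square per degree of freedom 52.1 to 79.0). Only the main edgeR fit was tried on simulated counts. The 15 alternatives covered DESeq2 1.42.0, scaling, filters, dispersion, repeated symbols, a replicate block and left-out libraries.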

Additional observations from a re-analysis of the deposited data

How the results depend on the processing

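Over 15 alternatives and 44 named genes, 656 values were recomputed, of which 584 kept direction and side of the threshold, 41 lost a call, 5 gained one and 26 changed sign. With no filter on low counts, 2 members were called higher and 6 lower, and their median log2 fold change was -0.18, where that of all genes moved to 0.42. Without liver 3 and blood 1 together, 3 members and 1195 genes were called lower. Leaving out 1 library at a time gave 1 to 2 members higher and 4 to 5 lower, with medians of -0.29 to -0.057. Sign changes touched genes near 0 or set by 1 library. Over single left-out libraries Dpm1 ran from -0.046 to 0.085, Gpld1 from -1.66 to 0.31, Ly6e from -0.14 to 0.58, Pigq from -0.11 to 0.13, Pigyl from -0.19 to 0.22 and Stt3b from -0.13 to 0.15. With no filter Dpm1 was at -0.013, Pigyl at -0.0076 and Stt3b at -0.018, and Stt3b was at -0.12 without liver 3 and blood 1. The cause of these shifts was not tested. With a replicate block, 2322 genes were higher and 2312 lower, with 1 member higher and 5 lower (Pigl lost at 0.051, Pigm gained at 0.024), Pigyl at -0.0051 and Stt3b at -0.012. Correlations were taken on the deviations of log2 CPM from each gene's own group mean, not on the levels themselves. On these deviations, same-numbered libraries correlated at 0.0541, 0.156 and 0.0225. Liver 1 and liver 2 correlated best with the blood library of the same number, and liver 3 with blood 1 (0.120). With so few libraries these values cannot decide whether the numbers pair them. The numbers were not taken as pairs because the labels do not say that a number marks 1 mouse. Members under about 10 counts a library are limited by depth.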
